A study of Mus musculus with 24 samples.

Results

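The step from old to oldest-old age was examined in muscle of mice that had received the control vector of a Klotho gene therapy experiment. RNA had been sequenced from the gastrocnemius, the large muscle of the calf, of female C57BL/6J mice. Every mouse compared carried AAV8, an adeno-associated virus, with a gene for green fluorescent protein (GFP) behind LP1, a promoter that is active in the liver. The virus was given through the tail vein at 3e8 vector genomes per mouse, and muscle was collected 14 days later. Old GFP mice were 21–24 months of age and oldest-old GFP mice 27–29 months, and 4 mice of either age gave a library each, so that 8 of the 24 libraries of the series were compared. The groups hold different mice, and the age of each mouse within its range was not used. The same step of age in mice that had received the vector for Klotho (AAV-Kl, 4 old and 4 oldest-old) served as a separate set of 8 animals, and 4 young GFP mice of 3–6 months gave the level before old age. Mice that received no virus were not used. The paper reports that oldest-old mice were injected only after the results of the old mice were known. Age and the time of the experiment can therefore not be told apart, in GFP or in AAV-Kl mice.

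Skeletal muscle loses mass and strength with age, and in mice the loss is steepest late in life. The gastrocnemius of the mouse is built mainly of fast fibres, which draw on glycogen and glycolysis for short contractions. Fibres that lose their nerve switch on the myogenic factor myogenin, embryonic acetylcholine receptors and proteins of the developing or stretched fibre, and fibres that shrink switch on ubiquitin ligases such as atrogin-1. Immediate early genes, among them the Fos, Jun and Egr families, are transcribed within minutes of activity, stretch or injury without new protein synthesis.

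The 8 libraries held from 36415886 to 59733985 reads on genes. Their number was 48771900 ± 9569250 in the old group and 50434900 ± 8216780 in the oldest-old group (mean ± SD, n = 4 each, two-sided exact permutation test, p = 0.771, where 4 against 4 allow no p below 0.0286). Transcripts of the mitochondrial genome made up 16.4% ± 0.944 of these reads in the 4 old mice and 15.2% ± 1.32 in the 4 oldest-old mice (mean ± SD, exact permutation test, p = 0.257). All 8 markers of the skeletal muscle fibre were detected, and together they held 139996 to 161263 CPM, read counts scaled to a common library size, in old mice and 112678 to 143016 CPM in oldest-old mice. Acta1, which encodes skeletal alpha-actin, lay between 33850 and 35654 CPM in old GFP mice and at 35599, 35456, 37291 and 22922 CPM in oldest-old GFP mice 1 to 4.

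Some libraries stood apart. Transcripts of hepatocytes were high in old GFP mice 1 and 4. Alb, which encodes serum albumin, was at 660, 2.82, 0.899 and 58.7 CPM in old GFP mice 1 to 4 and at 0.735, 0.433, 0.478 and 0.620 CPM in oldest-old GFP mice 1 to 4. Of 18 liver genes tested, 17 fell, 0 rose, and the exception was Cyp2e1, which lay between 6.95 and 79.5 CPM in oldest-old GFP mice. None of the 18 fell without old GFP mice 1 and 4. Liver genes varied in AAV-Kl mice as well, where 15 of the 18 fell from old to oldest-old age. Their summed CPM were 46.5, 143, 25.9 and 192 in old and 4.73, 88.3, 6.53 and 15.7 in oldest-old AAV-Kl mice 1 to 4. Fgb, which encodes a fibrinogen chain, had no read in any oldest-old GFP mouse, and no fold change is given for genes at that level. Transcripts of red blood cells were high in oldest-old GFP mice 1 and 4. Hbb-bs, a beta-globin gene, was at 60.6, 41.8, 68.4 and 64.8 CPM in old and at 285, 55.3, 38.8 and 270 CPM in oldest-old GFP mice. All 8 erythroid genes rose, and 0 did without oldest-old GFP mice 1 and 4. In bulk muscle, fewer cells of a type and less RNA per cell cannot be told apart. Oldest-old GFP mouse 4 also had the lowest level of the muscle fibre markers, and changes without it are given beside the results that moved most.

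**Figure D1:**
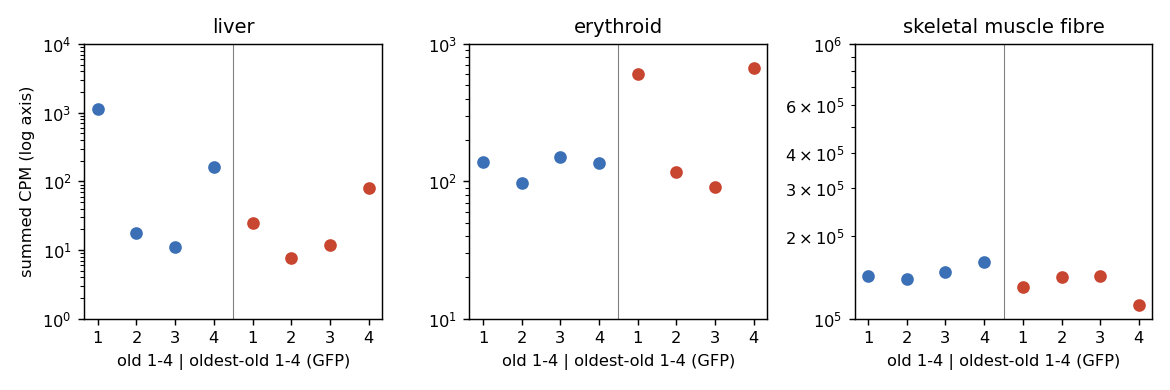
Summed CPM (log axis) of the liver, erythroid and skeletal muscle fibre gene lists in old GFP mice 1 to 4 (blue) and oldest-old GFP mice 1 to 4 (red), 1 point per library. Liver genes were highest in old GFP mouse 1 with 1118 CPM, erythroid genes were at 609 and 667 CPM in oldest-old GFP mice 1 and 4, and the muscle fibre markers were lowest in oldest-old GFP mouse 4.

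Genes were compared with edgeR's quasi-likelihood test, and a gene is said to have risen or fallen where its unadjusted p-value was under 0.05, the threshold that the study used. Of 17465 genes tested, 1860 (10.6%) passed in oldest-old against old GFP mice, 1037 higher (5.94%) and 823 lower (4.71%), where the threshold by itself would pass 873. Without old GFP mice 1 and 4 the count was 819, and with a liver score as covariate it was 801, both below 873. None passed after Benjamini-Hochberg adjustment over all genes, and the lowest adjusted p was 0.0612. DESeq2 called 1897 genes (10.9%) at an unadjusted p under 0.05 (5.19% higher, 5.71% lower) and 86 (0.536%) after adjustment. Each gene below therefore stands on an edgeR test that was not corrected for the number of genes. Changes were mostly small, with a median absolute log2 fold change of 0.34 among the 1860 genes and 0.14 among all genes. The CPM of the 4 oldest-old and the 4 old GFP mice did not overlap in 996 genes (5.7%), 555 of them higher (3.18%) and 441 lower (2.53%) in oldest-old mice. From young to old GFP mice, 3120 genes (17.9%, 10.3% higher and 7.52% lower) passed at the unadjusted threshold and 613 (3.51%) after adjustment.

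The AAV-Kl mice share no library with the GFP mice. In them 1920 genes passed (11%), 1127 higher (6.45%) and 793 lower (4.54%), and 19 passed after adjustment. Of the 1037 genes higher in oldest-old GFP mice, 209 were also higher in oldest-old AAV-Kl mice, which is 20.2% of the former and 18.5% of the latter, and 18 were lower. Of the 823 lower genes, 177 were also lower in oldest-old AAV-Kl mice, 21.5% of the former and 22.3% of the latter, and 7 were higher. Liver genes, which fell in both sets, are among these 177. These shares lie above the 6.45% and 4.54% of all genes that were higher or lower in AAV-Kl mice. Both steps use the same estimate of the spread of each gene, so the calls in the 2 sets are not independent. The 2 sets of mice differed in treatment, and the difference of their age steps passed at the unadjusted threshold in 895 genes (5.12%, 2.39% higher and 2.73% lower in AAV-Kl mice) and in 0 after adjustment. Counts of list members below stand beside 5.94% higher and 4.71% lower of all genes in GFP mice and 6.45% and 4.54% in AAV-Kl mice.

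Most immediate early genes rose. Of the 15 genes of this list 9 were higher and 1 lower in oldest-old GFP mice, beside 5.94% and 4.71% of all genes. The median log2 fold change was 0.98 beside 0.02 for all genes. Egr3, a zinc finger transcription factor of activity and stretch responses, was at 3.91, 1.57, 0.730 and 0.479 CPM in old GFP mice and at 8.80, 32.4, 25.0 and 0.821 CPM in oldest-old GFP mice. Mice 1 to 3 of the oldest-old group lay above every old mouse, and mouse 4 lay among the old mice. Its level was 9.74-fold higher, a log2 fold change of 3.28 ± 0.89 (standard error, unadjusted p = 0.00174). Fos, the partner of Jun proteins in the AP-1 factor, measured 89.5, 52.0, 35.6 and 11.5 CPM in old and 225, 207, 227 and 29.1 CPM in oldest-old GFP mice (1.86 ± 0.62, unadjusted p = 0.00749). Egr1, the best studied member of its family, measured 88.0, 61.2, 58.7 and 34.0 CPM in old and 214, 242, 249 and 46.1 CPM in oldest-old GFP mice (1.63 ± 0.49, unadjusted p = 0.00398). For both genes, as for Egr3, oldest-old mice 1 to 3 were above all old mice and mouse 4 was not. Ier2 was at 14.4, 11.4, 13.1 and 8.80 CPM in old and at 31.0, 29.9, 35.5 and 8.30 CPM in oldest-old GFP mice (1.13 ± 0.34, unadjusted p = 0.00369), with the same mouse low. The remaining members that rose were Btg2, an antiproliferative gene (1.75 ± 0.60), Junb (1.44 ± 0.64), Egr2 (1.42 ± 0.42), Maff (0.74 ± 0.29) and the transcription factor Myc (0.70 ± 0.23).

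**Figure D2:**
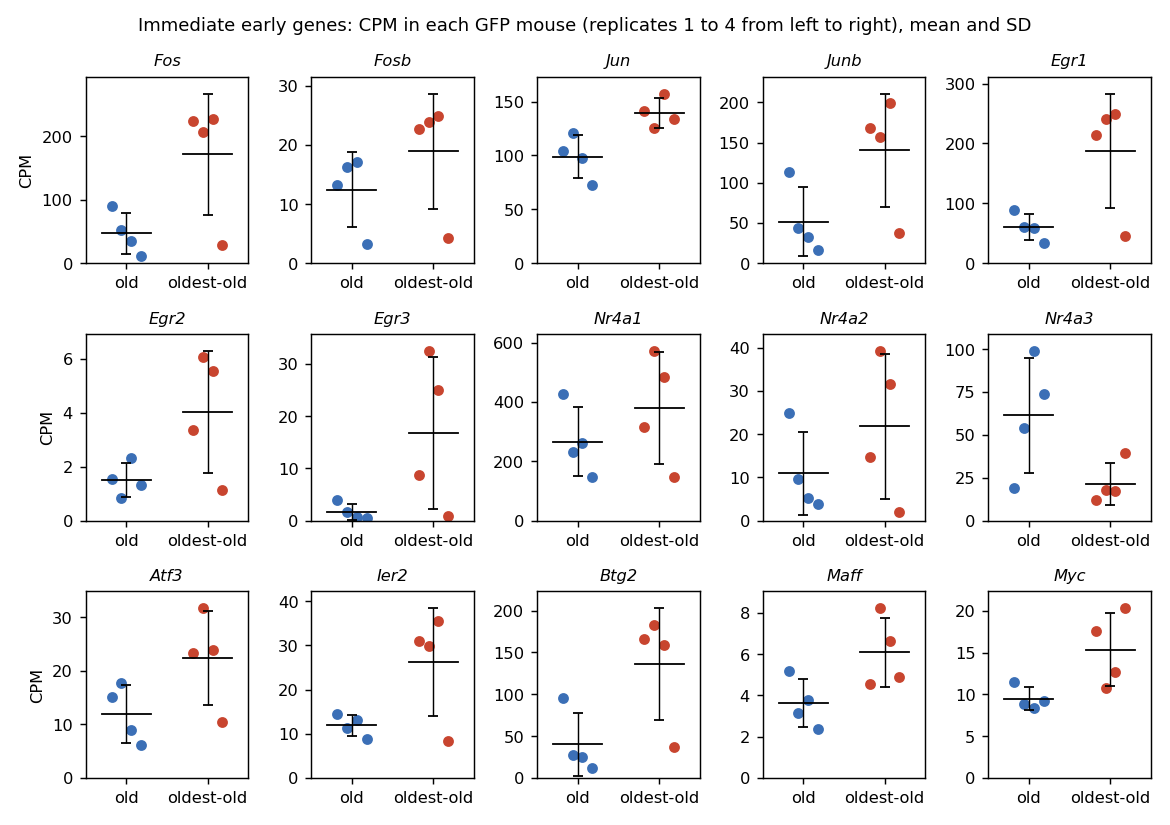
CPM of the 15 immediate early genes in each old (blue) and oldest-old (red) GFP mouse, replicates 1 to 4 from left to right, with the mean (bar) and SD (whiskers) of 4 mice. Oldest-old mouse 4, the rightmost red point, was the lowest of its group for Fos, Egr1, Egr3 and Ier2, and Nr4a3 ran the other way with old mice at 19 to 98.9 CPM and oldest-old mice at 11.8 to 39.3 CPM.

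Nr4a3, an orphan nuclear receptor induced by exercise, fell. It measured 19, 53.8, 98.9 and 73.7 CPM in old and 11.8, 17.7, 17.1 and 39.3 CPM in oldest-old GFP mice (log2 fold change -1.51 ± 0.44, unadjusted p = 0.00281). In AAV-Kl mice the same step was 0.96 ± 0.43 (unadjusted p = 0.0390), and the difference of the steps was 2.47 (unadjusted p = 0.000789). The other 2 receptors of its family did not pass in GFP mice, with 0.51 ± 0.41 for Nr4a1 and 0.98 ± 0.86 for Nr4a2. Fosb (0.60 ± 0.58), Jun (0.49 ± 0.26) and Atf3 (0.89 ± 0.53) also did not pass, although the Jun values of the 4 oldest-old mice, 125 to 157 CPM, were all above those of the old mice, 72.8 to 121 CPM.

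Oldest-old AAV-Kl mice showed a rise of 13 of the 15 genes and a fall of 0, with a median log2 fold change of 1.23. Egr3 was higher by 3.08 ± 0.89 there (unadjusted p = 0.00289), Fos by 2.64 ± 0.64 (unadjusted p = 0.000631) and Btg2 by 2.04 ± 0.60 (unadjusted p = 0.00337). Atf3, a stress-induced factor, was higher by 3.26 ± 0.57 in AAV-Kl mice (unadjusted p = 2.08e-05), and its step differed from that in GFP mice (unadjusted p = 0.00578). Between 7 and 11 members rose in GFP mice under every alternative setting and with any single mouse left out. Across the earlier step, from young to old GFP mice, Fos was higher by 2.42 (unadjusted p = 0.00146) and Egr1 by 1.63 (unadjusted p = 0.00437), while Egr3 changed by 0.55 (unadjusted p = 0.552), and both steps share the old GFP mice.

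Promoters of the immediate early genes were read because most of these genes rose in oldest-old GFP mice. RefSeq start sites of the build GRCm38.p6 were found for 11 of the 15 genes, and the 250 bases before each start were searched on both strands for the CArG box, the binding letters of serum response factor, and for the cyclic AMP response element TGACGTCA. The CArG box was found in 1 of the 11 genes, Egr2, and in 1.62% of 27025 genes with a window. The response element was found in 2 of the 11, Btg2 and Maff, and in 1.77% of all genes. The windows of Egr2 (chr10:67537316-67537565, plus strand, motif 72 bases before the start) and Btg2 (chr1:134079156-134079405, minus strand, motif 166 bases before the start) are shown 5′ to 3′ with the motif in capitals, since these genes were 2.68-fold and 3.37-fold higher in oldest-old GFP mice.
Egr2: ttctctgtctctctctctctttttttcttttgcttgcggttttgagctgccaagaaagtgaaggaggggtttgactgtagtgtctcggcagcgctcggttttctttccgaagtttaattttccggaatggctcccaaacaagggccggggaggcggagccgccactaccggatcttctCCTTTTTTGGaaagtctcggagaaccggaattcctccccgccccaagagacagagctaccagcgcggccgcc
Btg2: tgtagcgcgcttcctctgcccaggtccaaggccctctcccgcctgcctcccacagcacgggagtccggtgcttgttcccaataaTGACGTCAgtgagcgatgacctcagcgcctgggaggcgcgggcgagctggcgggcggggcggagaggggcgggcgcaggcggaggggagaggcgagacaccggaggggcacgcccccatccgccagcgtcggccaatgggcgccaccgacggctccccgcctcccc
Egr1, Egr3, Ier2 and Myc had no window here. A match describes letters in the window only, and binding was not measured. Sites beyond the 250 bases or with other letters were not searched, so a gene without a match may still have a site.

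Single genes were named outside the lists. Most were chosen by small p-values or large changes among the 498 genes (245 higher, 253 lower) that passed, did not overlap between the groups and exceeded a low level, and Ptgs2 was chosen for its adjusted p in DESeq2. Their values are therefore a description of these mice. The difference of the steps uses the same GFP libraries, so for genes chosen by their GFP values it tends to come out large. Nfkbiz, which encodes a nuclear cofactor of NF-kappaB, was at 2.54, 2.32, 2.53 and 1.82 CPM in old and at 7.35, 7.26, 6.39 and 4.77 CPM in oldest-old GFP mice (1.48 ± 0.30, unadjusted p = 9.0e-05). Every oldest-old mouse was thus well above every old mouse, mouse 4 included. Ptgs2, the inducible cyclooxygenase that makes prostaglandins, was low in all old mice at 0.565, 0.571, 0.450 and 0.433 CPM and measured 4.76, 1.87, 3.54 and 0.976 CPM in oldest-old GFP mice. It was 5.48-fold higher (2.45 ± 0.45, unadjusted p = 3.82e-05), against 0.72 ± 0.45 in AAV-Kl mice (unadjusted p = 0.130), and the steps differed (unadjusted p = 0.0138). Arid5a, an RNA-binding protein that stabilises inflammatory messages, was at 5.82 to 8.44 CPM in old and 10.7 to 16 CPM in oldest-old GFP mice (0.95 ± 0.23, unadjusted p = 0.000564) and rose by 1.22 ± 0.23 in AAV-Kl mice (unadjusted p = 4.64e-05).

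Ccn1, a secreted matrix protein induced by stretch and growth factors, measured 49.1, 53.9, 56.4 and 27.6 CPM in old and 107, 154, 176 and 70.7 CPM in oldest-old GFP mice. The rise was 1.44 ± 0.33 on the log2 scale (unadjusted p = 0.000334), 0.98 ± 0.32 in AAV-Kl mice (unadjusted p = 0.00709) and 0.88 from young to old GFP mice (unadjusted p = 0.0139). Otud1, a deubiquitinase, was at 47.9, 34.3, 16.5 and 13.9 CPM in old and at 91.7, 95.4, 105 and 53.6 CPM in oldest-old GFP mice, 3.06-fold higher (unadjusted p = 0.00175). In AAV-Kl mice Otud1 rose by 3.01 ± 0.46 on the log2 scale (unadjusted p = 4.15e-06), more than the 1.61 ± 0.44 of GFP mice (difference of the steps, unadjusted p = 0.0348).

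Smaller rises had a tight spread. Slc38a9, the lysosomal amino acid sensor upstream of mTORC1, went from 13.3 to 13.9 CPM in old mice to 16.2 to 18 CPM in oldest-old GFP mice (0.35 ± 0.08, unadjusted p = 0.000252). Sp1, a general transcription factor, went from 21.1 to 23.6 CPM to 25.9 to 33.4 CPM (0.34 ± 0.07, unadjusted p = 0.000108), whereas in AAV-Kl mice the step was 0.00 ± 0.07 and the steps differed (unadjusted p = 0.00264). Foxc1 (0.52 ± 0.12) and Hey1 (0.46 ± 0.11), transcription factors of vessel development, rose in GFP mice and measured -0.15 ± 0.12 and 0.08 ± 0.11 in AAV-Kl mice, with differences of the steps at unadjusted p = 0.000761 and unadjusted p = 0.0282. Ankrd39, Tmem140, Qsox2, Zfp871, Zfp451 and Polr1c, a subunit that RNA polymerases I and III share, completed, with Egfl7 and Myh1 below, the 15 higher genes of smallest p, with log2 fold changes of 0.23 to 0.86. Acer2, a ceramidase of the Golgi, was higher by 1.21 ± 0.48, but oldest-old mouse 4 stood at 26.4 CPM against 7.09 to 10.5 CPM in the others, and the change without that mouse was 0.59. Of the 30 genes, 15 in each direction, 27 had the same sign in AAV-Kl mice, and 14 passed there in the same direction. The difference of the steps passed in 8, beside 5.12% of all genes, but the 30 were chosen by their GFP values. After adjustment in DESeq2 25 of these 30 passed, on the same libraries by which they were chosen.

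**Figure D3:**
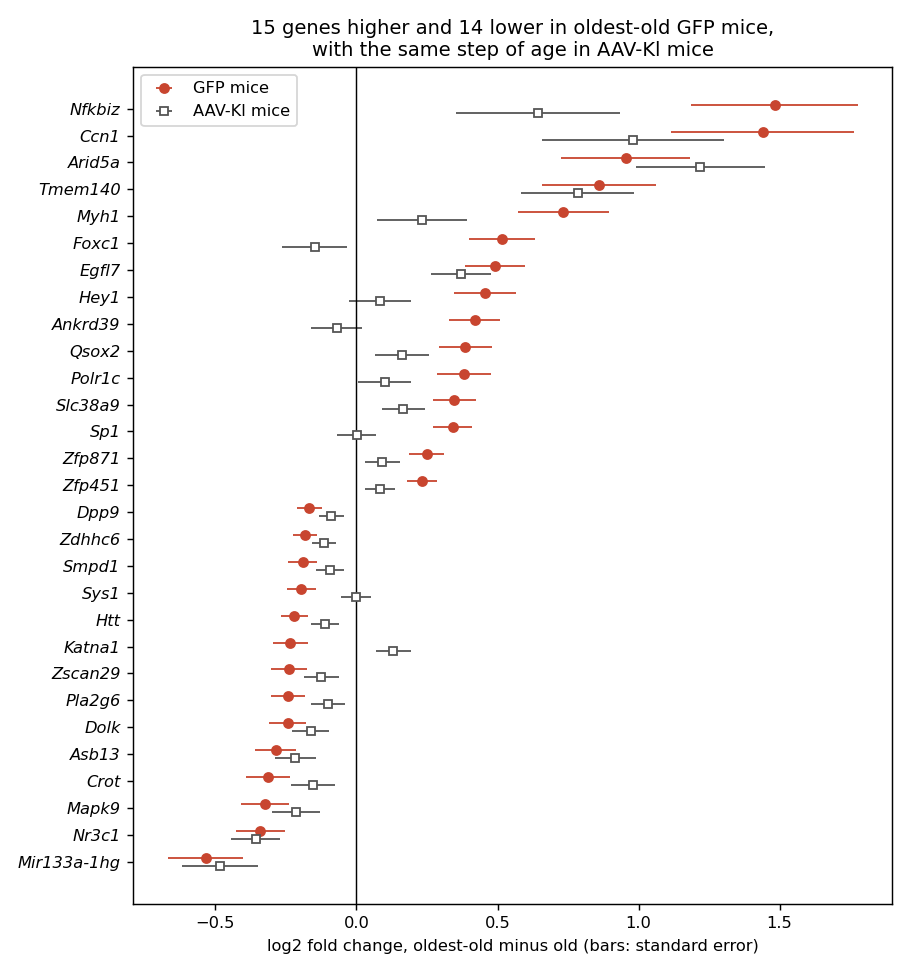
Log2 fold change from old to oldest-old mice (points, whiskers are standard errors) of 15 higher and 14 lower genes with the smallest p-values, in GFP mice (red circles) and AAV-Kl mice (open squares). Foxc1, Ankrd39 and Katna1 lay on opposite sides of 0 in the 2 sets of mice.

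Some endothelial genes rose. Of 12 markers of the vessel lining 5 were higher and 0 lower in oldest-old GFP mice, and 5 were higher in oldest-old AAV-Kl mice. Among all genes 5.94% were higher in GFP and 6.45% in AAV-Kl mice. Cldn5, the tight junction claudin of endothelium, measured 11.9, 8.71, 8.01 and 6.50 CPM in old and 16.9, 17.9, 15.9 and 13.1 CPM in oldest-old GFP mice (0.86 ± 0.24, unadjusted p = 0.00241). Egfl7, a factor secreted by endothelial cells, measured 21.3, 17.9, 17.3 and 16.9 CPM in old and 26.2, 25.3, 28.6 and 23.1 CPM in oldest-old GFP mice (0.49 ± 0.11, unadjusted p = 0.000214). The groups did not overlap for either gene, nor for the adhesion molecule Esam (0.32 ± 0.11, unadjusted p = 0.0113). In AAV-Kl mice Cldn5 rose by 0.66 ± 0.24 (unadjusted p = 0.0140), Egfl7 by 0.37 ± 0.11 (unadjusted p = 0.00255) and Esam by 0.41 ± 0.11 (unadjusted p = 0.00194). Pecam1 (0.40 ± 0.16) and the receptor Flt1 (0.34 ± 0.15) also rose in GFP mice, with oldest-old mouse 4 the highest of its group at 106 and 107 CPM. Among the markers that did not pass, Cdh5 measured 0.19 and Kdr 0.16, and the median of the list was 0.26. Without oldest-old GFP mouse 4, 3 of the 12 rose, and without old GFP mice 1 and 4, without oldest-old GFP mice 1 and 4, or with a liver score as covariate it was 2.

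Contractile genes of fast fibres moved in both directions. Myh1, the myosin heavy chain of type IIX fibres, was at 2704, 3105, 3035 and 3099 CPM in old and at 4721, 3661, 5554 and 5916 CPM in oldest-old GFP mice. The groups did not overlap, and the level was 1.66-fold higher (0.73 ± 0.16, unadjusted p = 0.000241). Myh4, the myosin heavy chain of type IIB fibres, was at 54902, 52991, 56074 and 65217 CPM in old and at 43841, 53028, 50635 and 43055 CPM in oldest-old GFP mice (-0.27 ± 0.11, unadjusted p = 0.0244), with a slight overlap. In AAV-Kl mice Myh4 fell likewise (-0.31 ± 0.11, unadjusted p = 0.0113), while Myh1 measured 0.23 ± 0.16 (unadjusted p = 0.161) and its steps differed (unadjusted p = 0.0403). Myh1 and Myh4 lie side by side on chromosome 11 and are close in sequence, so reads may be shared between them. Neither gene passed across the step from young to old GFP mice, with -0.09 for Myh1 and -0.07 for Myh4. The other 10 genes of the fast list did not pass. Of 12 genes of slow fibres Tpm3, a slow tropomyosin, rose (0.71 ± 0.32, unadjusted p = 0.0416) and 0 fell. Tpm3 was at 623 and 598 CPM in oldest-old GFP mice 1 and 4, and at 313 and 273 CPM in mice 2 and 3, beside 242 to 350 CPM in old mice. The median of the slow list was 0.49 with all 12 members above 0, and it was -0.21 without mice 1 and 4 of both groups.

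Genes of stretched and developing fibres rose in part. Ankrd1, a stress-responsive ankyrin repeat protein of the sarcomere, was at 18.8, 37.4, 27.3 and 19.7 CPM in old and at 73.0, 36.5, 49.9 and 114 CPM in oldest-old GFP mice (1.41 ± 0.38, unadjusted p = 0.00172). Sln, which encodes the calcium pump inhibitor sarcolipin, was at 5.77, 15.9, 8.18 and 2.69 CPM in old and at 50.9, 11.4, 18.1 and 40.7 CPM in oldest-old GFP mice (1.90 ± 0.52, unadjusted p = 0.00191). For both genes oldest-old mouse 2 lay among the old mice. These 2 genes had risen already from 5.70 ± 1.27 and 1.0 ± 0.217 CPM in young GFP mice (SD, n = 4). Tnnt2, the cardiac troponin T, rose by 0.95 ± 0.27 (unadjusted p = 0.00267). This makes 3 of 12 members higher and 0 lower, beside 5.94% and 4.71% of all genes. In AAV-Kl mice Ankrd1 (0.98 ± 0.38, unadjusted p = 0.0181) and Sln (1.96 ± 0.52, unadjusted p = 0.00141) rose as well. None of the 12 rose without oldest-old GFP mice 1 and 4, where Ankrd1 measured 0.74.

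Of 17 genes of denervation and the neuromuscular junction, 2 rose and 1 fell, Myog among the former and Ache as the latter. Among all genes 5.94% rose and 4.71% fell, so these counts say little about the list. Myog, the myogenic factor myogenin, measured 8.53, 13, 6.66 and 6.87 CPM in old and 18.5, 15.4, 16.9 and 13.1 CPM in oldest-old GFP mice (0.86 ± 0.36, unadjusted p = 0.0299). The groups did not overlap, but old mouse 2 and oldest-old mouse 4 were almost level. Ache, the acetylcholinesterase of the junction, was lower by 0.30 ± 0.11 on the log2 scale (unadjusted p = 0.0105). Myog passed in 3 of 8 fits that left out 1 mouse, with changes of 0.75 to 1.11. Acetylcholine receptor subunits did not pass in GFP mice, with 0.31 for Chrna1, 0.37 for Chrnb1, 0.46 for Chrnd, 0.94 for Chrng, the embryonic subunit, and -0.17 for Chrne, the adult one. Runx1 (0.69), Gadd45a (0.48), Ncam1 (0.43) and Musk (-0.03) did not pass either. None of the 17 passed without old GFP mice 1 and 4. In AAV-Kl mice 6 of the 17 rose and 0 fell, beside 6.45% and 4.54% of all genes. Among the 6 were Myog (1.46 ± 0.37, unadjusted p = 0.000839), Runx1 (1.25, unadjusted p = 0.00591) and Gadd45a (1.33, unadjusted p = 0.00180). Together the 17 genes were at 340, 292, 347 and 312 CPM in old AAV-Kl mice 1 to 4. In oldest-old AAV-Kl mice 1 to 4 they were at 400, 426, 630 and 300 CPM, so mouse 4 lay among the old mice. No difference between the steps of GFP and AAV-Kl mice passed for these 17 genes.

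Several enzymes of glycolysis and glycogen breakdown fell. Of 14 enzymes 7 were lower and 0 higher in oldest-old GFP mice, beside 4.71% and 5.94% of all genes. The median log2 fold change was -0.22. Pfkm, the muscle phosphofructokinase that sets the pace of glycolysis, was at 3546, 3641, 3795 and 3733 CPM in old and at 2710, 3443, 2980 and 2459 CPM in oldest-old GFP mice, without overlap (-0.34 ± 0.10, unadjusted p = 0.00298). Phka1, a regulatory subunit of phosphorylase kinase, which switches on glycogen breakdown, was at 852 to 999 CPM in old and 630 to 801 CPM in oldest-old GFP mice (-0.32 ± 0.10, unadjusted p = 0.00497). Pygm, the muscle glycogen phosphorylase, was at 9474, 8823, 9437 and 10489 CPM in old and at 6923, 9174, 8768 and 6475 CPM in oldest-old GFP mice (-0.29 ± 0.12, unadjusted p = 0.0259). In that gene mouse 2 of the oldest-old group lay among the old mice and the other 3 lay below them. The other enzymes that fell were pyruvate kinase Pkm (-0.23 ± 0.07), enolase Eno3 (-0.34 ± 0.13), lactate dehydrogenase Ldha (-0.22 ± 0.08) and triose phosphate isomerase Tpi1 (-0.25 ± 0.12). Aldolase Aldoa (-0.04 ± 0.08) and Gapdh (-0.06 ± 0.07) did not pass. In AAV-Kl mice Pfkm (-0.27 ± 0.10, unadjusted p = 0.0156), Phka1 (-0.39 ± 0.10, unadjusted p = 0.00124) and Pygm (-0.27 ± 0.12, unadjusted p = 0.0340) fell and 0 rose. Without oldest-old GFP mouse 4, 3 of the 14 fell in GFP mice, and in a fit of the 8 GFP libraries alone it was also 3. Without old GFP mice 1 and 4 or with a liver score as covariate it was 2. Without oldest-old GFP mice 1 and 4 it was 0, with a median of -0.12.

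**Figure D4:**
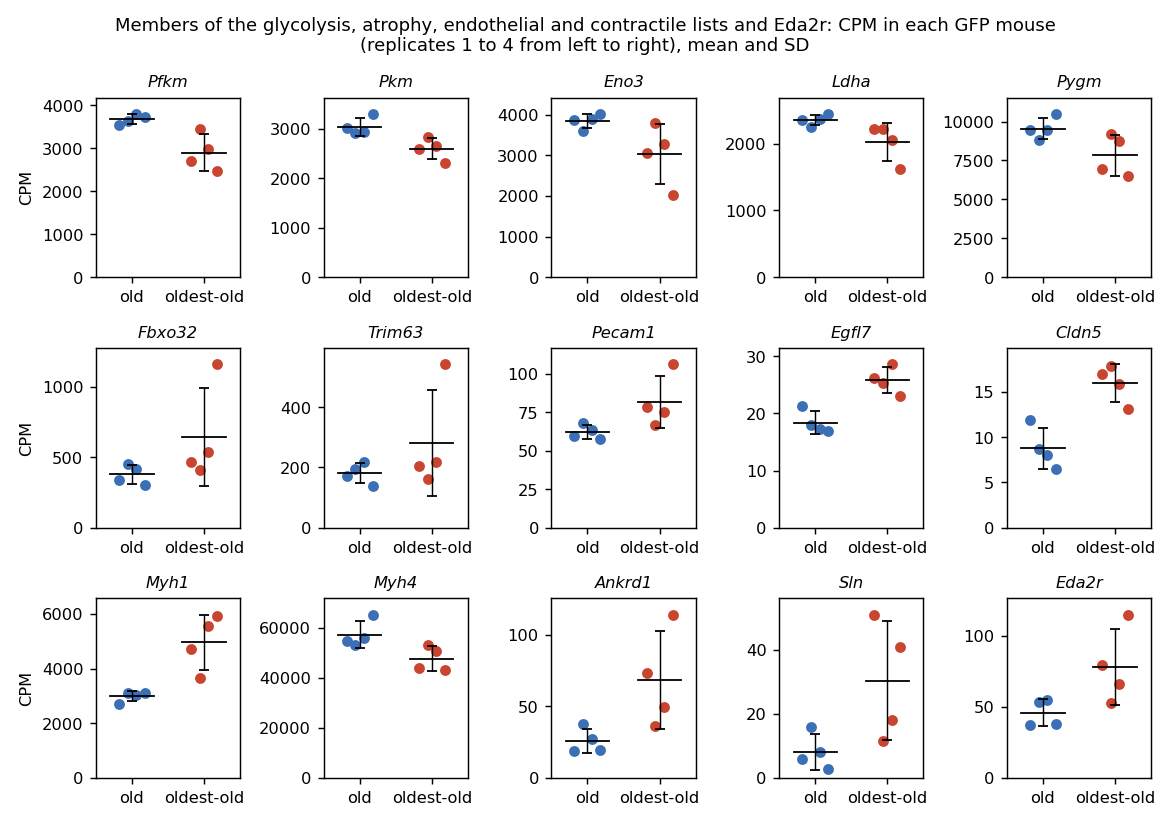
CPM of 15 genes of the glycolysis, atrophy, endothelial and contractile lists and of Eda2r in each old (blue) and oldest-old (red) GFP mouse, replicates 1 to 4 from left to right, with mean and SD of 4 mice. Old and oldest-old mice did not overlap for Pfkm, Pkm, Ldha, Egfl7, Cldn5 and Myh1, and for Fbxo32 and Trim63 oldest-old mouse 4 stood at 1160 and 542 CPM.

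Mitochondrial genes changed little. None of 21 nuclear genes of the respiratory chain passed in either direction, with a median of -0.07 and 19 values below 0. In AAV-Kl mice 3 of them rose, and the difference of the steps passed for 5, beside 5.12% of all genes. Among the 5 were Cox4i1 (unadjusted p = 0.0166) and Cox5b (unadjusted p = 0.0103). Of 13 genes of the mitochondrial genome mt-Nd1, a subunit of complex I, fell (-0.25 ± 0.11, unadjusted p = 0.0395) and 0 rose. In fatty acid oxidation and the citric acid cycle 1 of 16 genes rose and 1 fell. Pdk4, the kinase that holds back pyruvate oxidation, was at 260, 496, 379 and 387 CPM in old and at 1168, 421, 549 and 1291 CPM in oldest-old GFP mice (1.17 ± 0.48, unadjusted p = 0.0261). Its level had been 955 ± 235 CPM in young GFP mice (SD, n = 4), and it was lower by 1.33 on the log2 scale in old GFP mice (unadjusted p = 0.0136). Idh3a, a subunit of isocitrate dehydrogenase, fell (-0.22 ± 0.09, unadjusted p = 0.0331). In excitation-contraction coupling Jph2 (-0.41 ± 0.17, unadjusted p = 0.0307), which ties the membrane to the calcium store, and Srl (-0.19 ± 0.08, unadjusted p = 0.0217) fell among 12 genes and 0 rose. Without oldest-old GFP mouse 4 the changes were -0.25 for Jph2, -0.12 for Srl, -0.12 for Idh3a, -0.16 for mt-Nd1 and 0.90 for Pdk4, and none of these passed. None passed in these lists without old GFP mice 1 and 4 either.

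Several rises rested on oldest-old GFP mouse 4. Of 14 atrophy genes 3 rose and 0 fell, beside 5.94% and 4.71% of all genes, and without that mouse none rose. Fbxo32, the ubiquitin ligase atrogin-1, was at 340, 452, 414 and 304 CPM in old and at 468, 409, 536 and 1160 CPM in oldest-old GFP mice (0.77 ± 0.27, unadjusted p = 0.0101), and without mouse 4 the change was 0.32. Trim63, the ligase MuRF1, was at 139 to 218 CPM in old mice and at 204, 163, 217 and 542 CPM in oldest-old GFP mice (0.64 ± 0.28, unadjusted p = 0.0345), and 0.10 without mouse 4. Eif4ebp1, a brake on translation, measured 175 CPM in mouse 4 and 36.1 to 52.9 CPM in the other oldest-old mice. Of 10 glucocorticoid and metallothionein genes Cebpd, Errfi1, Pik3r1 and Mt2 rose, and without mouse 4 only Errfi1 did. Pik3r1, a regulatory subunit of phosphoinositide kinase, was at 36.0 to 39.1 CPM in old mice and at 47.7, 34.9, 42.4 and 196 CPM in oldest-old GFP mice. Errfi1, a feedback inhibitor of the EGF receptor, held between 70.8 and 78.0 CPM in all 4 oldest-old GFP mice, against 72.8, 44.4, 40.4 and 30.5 CPM in old GFP mice (0.65 ± 0.23, unadjusted p = 0.0117), and rose by 0.97 ± 0.23 in AAV-Kl mice (unadjusted p = 0.000615).

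Of 12 p53 targets and senescence genes 3 rose and 0 fell, beside 5.94% and 4.71% of all genes. Eda2r, a receptor of the tumour necrosis factor family that p53 induces, was at 37.5, 53.3, 54.6 and 38.0 CPM in old and at 79.6, 52.7, 66.3 and 115 CPM in oldest-old GFP mice (0.77 ± 0.22, unadjusted p = 0.00281). It rose in AAV-Kl mice by 0.51 ± 0.22 (unadjusted p = 0.0338), and young GFP mice stood at 14.8 ± 1.74 CPM (SD, n = 4), so that its level was higher at each age. Trp53inp1, a p53-induced nuclear protein, was between 12.5 and 12.9 CPM in all old mice and at 17, 15, 14.2 and 34.5 CPM in oldest-old GFP mice (0.67 ± 0.22, unadjusted p = 0.00572). The young level had been 25.4 ± 3.45 CPM, above both later ages, and AAV-Kl mice showed -0.03 ± 0.21. Sesn1 rose by 0.54 ± 0.23 (unadjusted p = 0.0285) in GFP mice and measured -0.14 in AAV-Kl mice (difference of the steps, unadjusted p = 0.0468). Without oldest-old GFP mouse 4 Trp53inp1 was higher by 0.28 and still passed, and Sesn1 measured 0.26 and did not. Sesn1 also did not pass without old GFP mouse 3 or 4, and none of the 12 passed without oldest-old GFP mice 1 and 4. Cdkn1a, the cell cycle inhibitor p21, did not pass in GFP mice (0.62, unadjusted p = 0.115) and rose by 1.54 in AAV-Kl mice (unadjusted p = 0.000736), where the difference of the steps did not pass (unadjusted p = 0.0966).

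In protein turnover few genes passed. Of 20 cytosolic ribosomal proteins 2 rose and 0 fell, beside 5.94% and 4.71% of all genes. All 20 values were above 0, and the median was 0.11. Among them Rplp0 rose by 0.24 ± 0.08 (unadjusted p = 0.00799). Rplp0 was at 598 to 624 CPM in old and 652 to 840 CPM in oldest-old GFP mice and rose by 0.20 ± 0.08 in AAV-Kl mice (unadjusted p = 0.0190). None of 31 proteasome subunits passed. Of 14 autophagy and lysosome genes Map1lc3a (0.47 ± 0.20, unadjusted p = 0.0283) and Lamp2 (0.25 ± 0.11, unadjusted p = 0.0309) rose, with mouse 4 the highest in both, and without it they measured 0.21 and 0.09 and did not pass. At the unadjusted threshold, several heat-inducible chaperones differed between the 2 sets of mice. In GFP mice Hspa8, the constitutive member of the heat shock protein family, fell (-0.20 ± 0.09, unadjusted p = 0.0292) and 0 of 14 rose, while in AAV-Kl mice 6 of 14 rose, Hspa8 among them (0.20 ± 0.09, unadjusted p = 0.0289). Hspa1b was at 2.30 to 7.07 CPM in old and 3.11 to 7.12 CPM in oldest-old GFP mice (0.08 ± 0.56), and in AAV-Kl mice it rose by 2.95 ± 0.59 (unadjusted p = 9.27e-05, difference of the steps, unadjusted p = 0.00214). The difference of the steps passed for 7 of the 14 chaperones, beside 5.12% of all genes, and for 0 genes after adjustment. Summed CPM of the 14 overlapped, at 3746 to 5235 in old and 4366 to 6782 in oldest-old AAV-Kl mice, with oldest-old mouse 3 the highest. Of 14 genes of the integrated stress response Chac1 (1.39 ± 0.60, unadjusted p = 0.0314) and Ddit3 (0.33 ± 0.15, unadjusted p = 0.0437) rose, and Chac1 stood at 158 CPM in mouse 4. Without mouse 4 Chac1 measured 0.45 and did not pass, nor did it without old GFP mouse 2 or 3. Ddit3 passed in 2 of 8 fits that left out 1 mouse and was lowest, at 0.18, without oldest-old GFP mouse 1.

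Among the 15 lower genes with the smallest p-values, changes lay between -0.17 and -0.53 on the log2 scale. Nr3c1, the glucocorticoid receptor, was at 131, 127, 169 and 164 CPM in old and at 109, 121, 125 and 112 CPM in oldest-old GFP mice (-0.34 ± 0.09, unadjusted p = 0.00105). It had also fallen from young to old GFP mice, by 0.40 on the log2 scale (unadjusted p = 0.000238), and it fell in AAV-Kl mice, with -0.36 ± 0.09 (unadjusted p = 0.000696). All 4 oldest-old GFP mice lay below the 4 old GFP mice. Mir133a-1hg, the host transcript of muscle microRNAs, was at 4.15, 5.29, 5.73 and 5.70 CPM in old and at 2.85, 3.89, 3.80 and 3.84 CPM in oldest-old GFP mice (-0.53 ± 0.13, unadjusted p = 0.000875), after 6.43 ± 0.427 CPM in young GFP mice (SD, n = 4). It fell by 0.48 ± 0.13 in AAV-Kl mice (unadjusted p = 0.00203).

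Htt, which encodes huntingtin, was at 19.6 to 21.9 CPM in old and at 17.3 to 19.4 CPM in oldest-old GFP mice (-0.22 ± 0.05, unadjusted p = 0.000274). Mapk9, a Jun kinase, was at 74.4 to 82.3 CPM in old and at 56.8 to 70.5 CPM in oldest-old GFP mice (-0.32 ± 0.08, unadjusted p = 0.00116). Crot, which prepares fatty acids in peroxisomes for export, measured 35.9 to 37.8 CPM in old and 25.4 to 31.9 CPM in oldest-old GFP mice (-0.31 ± 0.08, unadjusted p = 0.000821). Of these, Htt and Mapk9 also fell in AAV-Kl mice. Lipid enzymes were among the others, with Pla2g6, a phospholipase (-0.24 ± 0.06), and Smpd1, the acid sphingomyelinase of the lysosome (-0.19 ± 0.05). Asb13 (-0.29 ± 0.07), Zdhhc6 (-0.18 ± 0.04), Dolk (-0.24 ± 0.06), Dpp9 (-0.17 ± 0.04), Zscan29 (-0.24 ± 0.06) and Sys1 (-0.20 ± 0.05) were also among these lower genes, as was Katna1. Katna1, a subunit of the microtubule-severing katanin, was at 10.2 to 10.7 CPM in old and 8.46 to 9.30 CPM in oldest-old GFP mice (-0.23 ± 0.06, unadjusted p = 0.00153) but measured 0.13 ± 0.06 in AAV-Kl mice, and the steps differed (unadjusted p = 0.000655).

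Under the same conditions of level and separation, the largest falls outside the liver list belonged to Adora1, Mpp3, Gdap1, Sntb1 and Kazald1. Adora1, an adenosine receptor, was at 2.78, 3.74, 5.73 and 6.23 CPM in old and at 2.64, 1.51, 1.61 and 2.08 CPM in oldest-old GFP mice (0.428-fold, unadjusted p = 0.00466). Mpp3, a membrane scaffold protein, was at 18.2 to 19.6 CPM in all old mice and at 8.73, 13.8, 15 and 6.27 CPM in oldest-old GFP mice (-0.78 ± 0.24, unadjusted p = 0.00447). Gdap1, a protein of the outer mitochondrial membrane, measured 14.8 to 19 CPM in old and 9.57, 12.7, 14.3 and 4.12 CPM in oldest-old GFP mice (-0.71 ± 0.30, unadjusted p = 0.0307). For Mpp3 and Gdap1 oldest-old mice 1 and 4 were the lowest, and without mouse 4 Gdap1 measured -0.45 and did not pass. Sntb1, a syntrophin of the dystrophin complex, was lower by 0.66 ± 0.24 on the log2 scale (unadjusted p = 0.0141), by 0.46 without old GFP mouse 1, where it did not pass, and by 0.77 ± 0.24 in AAV-Kl mice (unadjusted p = 0.00548). Kazald1, a secreted protein, was at 6.52 to 10.4 CPM in old and at 4.32 to 6.17 CPM in oldest-old GFP mice (-0.65 ± 0.22, unadjusted p = 0.00908).

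**Figure D5:**
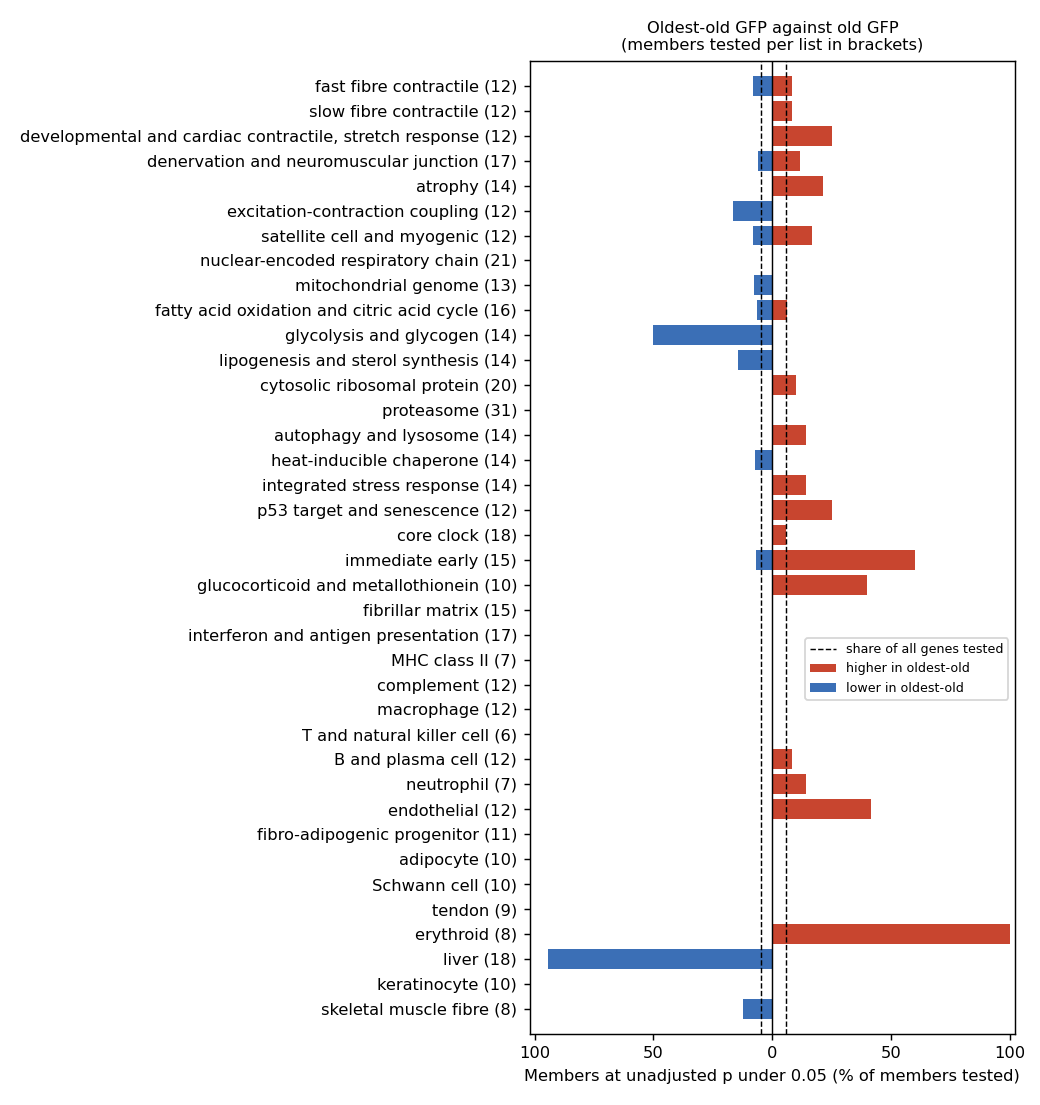
Share of the members tested of each gene list (number in brackets) that rose (red, right) or fell (blue, left) in oldest-old against old GFP mice at an unadjusted p under 0.05. Dashed lines mark the shares of all genes, 5.94% higher and 4.71% lower, and the immediate early list reached 9 of 15 higher and the glycolysis list 7 of 14 lower, while the erythroid and liver bars rest on the libraries described above.

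Lists of other cells and of the immune system passed in few members or none. No gene of the fibrillar matrix (15 tested), interferon and antigen presentation (17), MHC class II (7), complement (12), macrophage (12), T and natural killer cell (6), fibro-adipogenic progenitor (11), adipocyte (10), Schwann cell (10), tendon (9) or keratinocyte (10) lists passed in oldest-old against old GFP mice. Their medians were not all near 0, at -0.34 for the fibrillar matrix, -0.34 for MHC class II, -0.37 for adipocytes and 0.31 for interferon genes, but the spread between mice was large, and the median of the fibrillar matrix was -0.13 without oldest-old GFP mouse 4, its lowest mouse. The main fit takes the spread between mice from all 20 libraries. In a fit of the 8 GFP libraries alone, 4 interferon genes rose and 3 adipocyte genes fell. In that fit 1 gene each of the fibrillar matrix and Schwann cell lists also fell. Fibrillar matrix genes had 13 of 15 values below 0, with -0.62 for Col1a1 (unadjusted p = 0.136) and -0.65 for Col3a1 (unadjusted p = 0.139). Of 12 B and plasma cell genes Igha rose, and it was at 8.40 CPM in oldest-old mouse 1 and at 0.529 to 0.852 CPM in the others. Of 7 neutrophil genes Ngp rose, with 1.81 CPM in oldest-old mouse 4, without which it measured 0.59 and did not pass. Of 12 satellite cell and myogenic genes Itga7 (0.34 ± 0.10, unadjusted p = 0.00400) and Myf6 (0.61 ± 0.29, unadjusted p = 0.0467) rose and Calcr, a receptor of quiescent satellite cells, fell (-0.83 ± 0.32, unadjusted p = 0.0189), at 0.424 to 0.590 CPM in old and 0.124 to 0.409 CPM in oldest-old GFP mice. Without oldest-old GFP mouse 4 Myf6 measured 0.32 and Calcr -0.56, and neither passed. Of 14 lipogenic and sterol genes Hmgcs1 (-0.22 ± 0.09, unadjusted p = 0.0268) and Fdps fell. Fdps had at most 0.405 CPM in any of the 8 mice and may share reads with near-identical copies, so its change is uncertain.

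Oldest-old GFP mice differed from each other more than old GFP mice did. The median SD of log2 CPM among the 4 mice of a group was 0.224 in oldest-old and 0.156 in old GFP mice, and the SD was larger in oldest-old mice for 67.7% of genes. This rested on oldest-old mouse 4. Without it the median SD of the oldest-old group was 0.147 and the share was 48.9%, while leaving out any other mouse kept the share between 64.6% and 70.4%.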

How the data were processed

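RNA sequencing libraries of gastrocnemius muscle from 4 old GFP and 4 oldest-old GFP mice were compared. The authors aligned reads with STAR to the mouse genome mm10 (GRCm38) and deposited, for each library, raw read counts per gene for 55385 genes, unstranded and by strand. The annotation release is not given in the sources used here. The unstranded count was used because the first strand column held 49.8% to 50.2% of the reads counted by strand, so reads of overlapping genes on opposite strands cannot be told apart. The 4 summary lines of each file, which name no gene, were left out, and 74.7% to 76.4% of reads were counted on genes. Between 36415886 and 59733985 reads per library set the precision, and CPM are scaled by edgeR's TMM library sizes. Symbols and biotypes came from GENCODE M21 (55144 IDs matched, 241 had no symbol).

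Counts of the 20 libraries of 5 groups (young, old and oldest-old GFP, old and oldest-old AAV-Kl) were fitted together with edgeR 4.0.16 (R 4.3.3, filterByExpr by group, TMM, glmQLFit, glmQLFTest), and 17465 genes were tested. The study names DESeq2 with a p-value under 0.05, and DESeq2 1.42.0 was run as an alternative. The fit was tested on simulated data with known fold changes. Single library measures were compared with a two-sided exact permutation test. A p-value or standard error of the edgeR fit rests on a spread between mice that was estimated over all 20 libraries. It does not measure the spread of the 8 GFP mice alone. A fit of these 8 libraries called 1507 genes at an unadjusted p under 0.05, 883 higher and 624 lower.

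Genes named were, from genes at an unadjusted p under 0.05 whose groups did not overlap, with a mean log2 CPM of at least 1, an established symbol and no place in the liver and keratinocyte lists, the 15 with the smallest p and the 5 with the largest change in each direction, then up to 4 members of each of 38 gene lists at that threshold and up to 10 genes past adjustment in DESeq2 by smallest p. Some genes that the rule names are not reported here. Further list members and library markers were named after their values were seen. The libraries, gene lists and tests were chosen with earlier results of these data known. Alternatives were DESeq2's size factors and test, other filters, the first strand column, a fit of the 8 libraries, a liver score as covariate, a replicate block and leaving out libraries. These were run for the GFP step. For the AAV-Kl step and the difference of the steps, only DESeq2's size factors were tried.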

Additional observations from a re-analysis of the deposited data

Results flagged for a closer look

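In each group of 4 mice, the highest or lowest mouse was compared with the range of its group for the gene lists and named genes, on mean or single-gene log2 CPM. Of 278 such groups 12 had a mouse far from the others, and chance gives about 1 in 20. Oldest-old GFP mouse 4 was the highest of its group for the atrophy list at 7.01 and the ribosomal protein list at 7.78, and the lowest for the fibrillar matrix list at 4.53 and Ier2 at 3.06. Oldest-old GFP mouse 1 was the highest for the B and plasma cell list at 2.65 and for Igha at 3.08, and the lowest for Mir133a-1hg at 1.53. Oldest-old GFP mouse 3 was the lowest for Fgb at -4.63, a gene without a read in that group, where the value only reflects library size. Among old GFP mice, mouse 3 was the highest for the slow fibre list at 7.16 and the lowest for Fdps at -2.08, mouse 4 was the lowest for the p53 target and senescence list at 3.97, and mouse 1 was the lowest for Myh1 at 11.4. The difference of the age steps between AAV-Kl and GFP mice passed adjustment for no named gene.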

How the results depend on the processing

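No gene passed adjustment under any edgeR setting that kept all 4 mice of both groups, and 86 did with the DESeq2 test. A liver score as covariate left 801 genes at an unadjusted p under 0.05 (539 higher, 262 lower), and a fit without a filter on low counts gave 1305 lower genes. Leaving out old GFP mice 1 and 4 gave 819 genes (582 higher, 237 lower). Leaving out oldest-old GFP mice 1 and 4 gave 823 (429 and 394), and leaving out all 4 of these mice gave 514 (383 and 131), both chosen after seeing the data. The counts of 801, 819, 823 and 514 lie below the 873 that the threshold by itself would pass in the main fit. A fit of fewer mice can also call fewer genes. Leaving out 1 mouse gave 1136 to 2688 genes, 552 (without oldest-old GFP mouse 4) to 1345 higher, 543 to 1343 lower, and 0 to 2 after adjustment. Without 1 mouse the difference in reads on genes ranged from -2455680 to 4731280, and the share of genes with the larger SD in oldest-old mice from 48.9% to 70.4%.

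Replicate numbers are shared between the groups, but same-numbered mice did not deviate together (correlations of -0.066 to 0.0818, against -0.118 to 0.132 for other pairs). The fit with a replicate block called 1716 genes (958 higher, 758 lower) and 0 after adjustment.

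Among the genes named, log2 fold changes turned their sign with the liver covariate for Hpx (0.50) and Serpinc1 (0.32), and without old GFP mice 1 and 4 for Hpx (0.062). Without oldest-old GFP mice 1 and 4 they were -0.083 for Eif4ebp1, -0.0038 for Chac1, -0.19 for Igha, -1.17 for Ngp, -0.13 for Slc4a1 and -0.037 for Hbb-bt. With all 4 left out they were -0.0082 for Tpm3, -0.12 for Trim63, -0.00017 for Lamp2, -0.43 for Igha, -1.22 for Ngp and -0.26 for Slc4a1. Without 1 mouse Igha ranged from -0.038 (without oldest-old GFP mouse 1) to 2.18. The cause was not tested. Genes near 1 CPM or below rest on few reads, which limits their precision.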
